A study of Rattus norvegicus with 12 samples.

Results

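The respiratory chain of wound tissue was followed in 12 RNA sequencing libraries, 1 for each of 4 treatments on each of 3 days. The genes were taken by name and by chromosome. Nuclear members were the rows named for subunits of NADH dehydrogenase (Nduf followed by a, b, c, s or v and a number), succinate dehydrogenase (Sdha to Sdhd), the cytochrome bc1 complex (Uqcr), cytochrome c oxidase (Cox4 to Cox8) and ATP synthase (Atp5), and mitochondrial members were all rows on the mitochondrial chromosome. This gave 119 of the 25620 rows of the count table, 86 nuclear and 33 mitochondrial. The mitochondrial rows were 13 protein genes, 2 rRNA genes and 18 tRNA genes. The table types 85 of the nuclear rows as protein coding and Ndufb1 as lncRNA. The same 119 rows stood in the FPKM table of 25524 rows.

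The wounds were full-thickness punch wounds on the back of male SD rats, obtained at 8 to 12 weeks of age and made diabetic with streptozotocin (STZ), so the control animals were diabetic too. The model gives high blood glucose by loss of the insulin-producing cells and lacks parts of human diabetic foot disease. Control wounds received saline. The other wounds received d-SMG (the dried mucus gel of the snail *Achatina fulica*), s-GAG (the sulfated glycosaminoglycan of snail mucus, given as GAG in the labels) or Alg (a commercial alginate dressing), and tissue labelled as skin was taken on day 3, 7 and 14. The number of rats behind each library is not given in the sources used here. With 1 library per treatment and day, the difference between 2 libraries of a day had no replicate check. Treatments were therefore tested over the 3 days and days over the 4 treatments.

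Electrons from NADH enter the chain at complex I and electrons from succinate at complex II. They pass through complex III and cytochrome c to complex IV, which reduces oxygen. Complexes I, III and IV pump protons, and complex V (ATP synthase) uses the gradient to make ATP. Mitochondrial DNA encodes core subunits of complexes I, III, IV and V, whereas complex II and all other subunits are encoded in the nucleus, so that the assembled enzymes need both genomes. Some complex IV subunits exist as isoforms, with Cox6a2 and Cox8b used in heart and skeletal muscle and Cox6a1 and Cox8a in most other tissues.

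The promoters are shown first, because the nuclear members are spread over many chromosomes and the choice by name did not use their promoter letters. RefSeq promoter entries (build GRCr8, 250 bases before to 50 bases after the start) were found for 74 of the 86 nuclear members. They were searched on both strands for 8-letter cores known for NRF1 (CGCATGCG), GABPA (CCGGAAGT), the oestrogen-related receptors (CAAGGTCA) and YY1 (AAGATGGC), factors known to act on nuclear genes of mitochondria. No match overlaps another in the stretches shown here. The YY1 core stood in 16 of the 74 member promoters (21.6%), against 3.17% of all 33469 promoters of the table and 3.68% of the 21842 of protein-coding genes. The NRF1 core stood in 7 (9.46%, against 1.66% and 2.11%), the GABPA core in 8 (10.8%, against 3.81% and 4.78%), and the receptor core in 4 (5.41%, against 1.52% and 1.26%). At least 1 of the 4 cores was found in 29 of the 74 (39.2%), against 11.02% of the protein-coding promoters. Of the 16 members with the YY1 core, 14 held it in the direction of transcription.

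The stretches below run from 120 bases before to 30 bases after the start, 5′ to 3′ in the direction of the gene, with the motif letters in capitals. Cox8a, Atp5po and Uqcrc1 are shown because they hold several of the cores, and Cox6a2 and Cox8b because they are the muscle isoforms whose levels varied most over the libraries. Neither muscle isoform held any of the 4 cores in its 300 bases, whereas Cox8a held 3 kinds. Among the Cox members with a promoter entry, only Cox5b and Cox8a held a core, so the lack was not particular to the muscle isoforms.
Cox8a, chr1:213833594-213833743, minus strand: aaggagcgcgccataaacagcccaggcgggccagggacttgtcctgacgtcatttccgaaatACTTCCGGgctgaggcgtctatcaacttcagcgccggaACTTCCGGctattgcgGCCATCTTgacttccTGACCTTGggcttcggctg
Atp5po, chr11:44657454-44657603, minus strand: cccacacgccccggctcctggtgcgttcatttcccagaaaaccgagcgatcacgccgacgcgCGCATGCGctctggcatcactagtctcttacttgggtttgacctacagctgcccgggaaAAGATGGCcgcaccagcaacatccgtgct
Uqcrc1, chr8:118468103-118468252, plus strand: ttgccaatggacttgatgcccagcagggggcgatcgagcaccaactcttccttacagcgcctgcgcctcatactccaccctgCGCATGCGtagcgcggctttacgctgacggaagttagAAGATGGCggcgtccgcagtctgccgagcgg
Cox6a2, chr1:192219687-192219836, minus strand: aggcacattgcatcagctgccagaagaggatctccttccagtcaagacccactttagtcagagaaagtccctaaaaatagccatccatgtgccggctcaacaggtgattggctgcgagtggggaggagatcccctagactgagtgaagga
Cox8b, chr1:205408244-205408393, minus strand: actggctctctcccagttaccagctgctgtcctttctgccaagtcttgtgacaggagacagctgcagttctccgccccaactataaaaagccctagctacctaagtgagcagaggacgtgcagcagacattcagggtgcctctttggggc
A match of these letters is a description of the window and not evidence of binding.

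The libraries differed in the reads they held on markers of muscle and epidermis. Between 13748887 and 38302461 reads per library fell on genes. The 18 skeletal muscle markers took 19.96% of the reads in d-SMG day 3 and 15.7% in Alg day 7, but only 0.826% in d-SMG day 7, 1.16% in d-SMG day 14 and 1.48% in Alg day 14. All 18 were detected in every library. The 11 keratinocyte markers in the table took 0.00359% of the reads in d-SMG day 3 and 0.492% to 3.12% in the other 11 libraries, so the labelled skin was nearly without its defining epidermal RNA in that library. The s-GAG day 14 library stood apart from all others in another way, with short genes high and long genes low by more than in any other library, as described below. The medians fitted over days or treatments are therefore also given without it. In bulk tissue, fewer cells of a type and less RNA per cell cannot be told apart.

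Reads on the 86 nuclear members and on the 33 mitochondrial members were of the same order, and their ratio varied 4.37-fold over the libraries. The nuclear members took 0.987% of the reads in Control, 0.923% in d-SMG, 0.845% in s-GAG and 0.845% in Alg on day 3. On day 7 they took 0.636% in Control, 0.800% in d-SMG, 0.812% in s-GAG and 0.872% in Alg. On day 14 they took 0.664% in Control, 1.04% in d-SMG, 1.81% in s-GAG and 0.826% in Alg. The Control libraries were thus the highest of the 4 on day 3 and the lowest on days 7 and 14. The s-GAG day 14 value was the highest of all 12, and without it the range was 0.636% to 1.04%.

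The mitochondrial members took 1.46% of the reads in Control, 1.72% in d-SMG, 1.56% in s-GAG and 1.55% in Alg on day 3. On day 7 the shares were 0.970% in Control, 1.69% in d-SMG, 1.28% in s-GAG and 1.57% in Alg. On day 14 they were 1.12% in Control, 1.52% in d-SMG, 0.872% in s-GAG and 0.930% in Alg. The d-SMG library was the highest of the 4 on each of the 3 days, with a mean of 1.64% ± 0.106 (SD, n = 3 days) against 1.18% ± 0.250 in Control, 1.24% ± 0.345 in s-GAG and 1.35% ± 0.365 in Alg. On day 7 this order depended on the scaling. With the TMM scaling described below, the median log2 ratio of the mitochondrial members to Control was 0.80 for Alg and 0.56 for d-SMG. Scaled by library totals it was 0.76 for Alg and 0.85 for d-SMG. The muscle marker share of the d-SMG library was the highest of the 4 on day 3 and the lowest on days 7 and 14. The exact 95% binomial interval of the Control day 3 share was 1.45% to 1.46%, and such intervals cover counting error only.

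The ratio of mitochondrial to nuclear reads was 1.48 in Control, 1.87 in d-SMG, 1.85 in s-GAG and 1.84 in Alg on day 3. On day 7 it was 1.52 in Control, 2.11 in d-SMG, 1.57 in s-GAG and 1.80 in Alg. On day 14 it was 1.68 in Control, 1.47 in d-SMG, 0.482 in s-GAG and 1.13 in Alg. The Control library was the lowest of its day on days 3 and 7 and the highest on day 14. The median over the 12 libraries was 1.63, and the 11 libraries other than s-GAG day 14 lay between 1.13 and 2.11. From summed FPKM, which divides by gene length, the median ratio was 1.92 and the order of the 4 libraries within each day was the same as from reads.

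**Figure D1:**
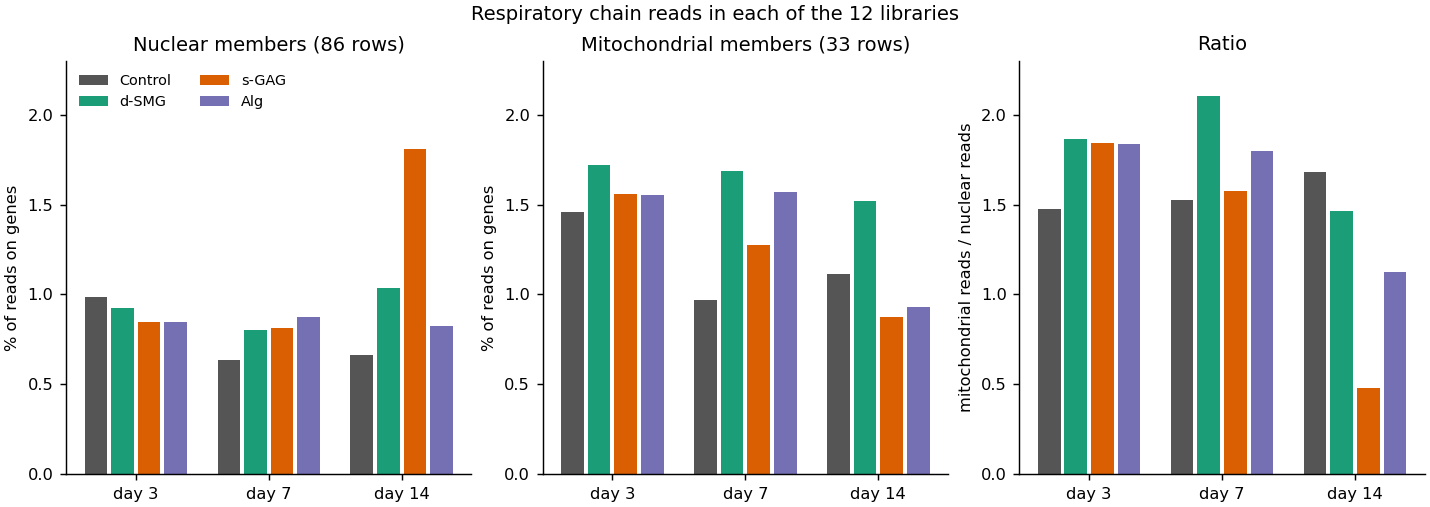
Share of the reads on genes taken by the 86 nuclear rows (left) and the 33 mitochondrial rows (middle), in %, and the ratio of the 2 read sums (right), with 1 bar per library, grouped by day and coloured by treatment. The d-SMG bars for the mitochondrial rows lie between 1.52% and 1.72%, and s-GAG day 14 has the highest nuclear share (1.81%) and the lowest ratio (0.482).

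Within the mitochondrial sum, protein genes took nearly all reads. The 2 rRNA genes, mt-Rnr1 and mt-Rnr2 (the RNAs of the small and large mitochondrial ribosome subunits), took between 0.0174% and 0.0480% of all reads in these rRNA-depleted libraries. The 18 tRNA rows took at most 0.00274%. Of the 33 rows, 7 had fewer than 10 reads over all 12 libraries, and 16 had at least 10 reads in each.

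COX1 (the catalytic core of complex IV) took the most mitochondrial protein-gene reads, with a median over the libraries of 23.9%. ATP6 followed with 13.5%, COX2 with 13.1%, ATP8 with 11.1%, COX3 with 8.31% and ND1 with 8.02%. Per length, in mean FPKM over the 12 libraries, the order was ATP8 5939, ATP6 2490, COX2 2362, COX1 1858, COX3 1284, ND1 1019, ND4L 715, ND2 678, ND4 577, ND5 334, CYTB 326, ND3 51.5 and ND6 23.2. ATP8 overlaps ATP6 and ND4L overlaps ND4 on the same transcripts, so that how the counting split these reads is uncertain. ND6 is the one protein gene of the light strand, and whether the counting used strand is not given in the sources used here. Neighbours in this order such as ND2 and ND4, or ND5 and CYTB, had overlapping ranges over the libraries, at 284 to 1030 FPKM for ND2 and 353 to 856 for ND4.

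The composition was similar in 11 libraries and different in s-GAG day 14. ATP8 took 2.27% of the mitochondrial protein-gene reads in s-GAG day 14, against 7.67% to 12.5% in the other 11 libraries. ND4L took 0.214% there, against 1.33% to 2.46%. ND1 was low too, at 4.68% against 7.57% to 10.2%. COX3 was high at 13.3% against 5.45% to 8.99%, ATP6 at 19.5% against 11.2% to 15.5%, and COX2 at 17.5% against 9.37% to 14.6%. Reads on ATP8 were 0.117 of those on ATP6 in that library and 0.532 to 1.08 of them elsewhere. Control day 14 held the lowest COX3 and COX2 shares and the highest ND4L and ND1 shares of all libraries.

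**Figure D2:**
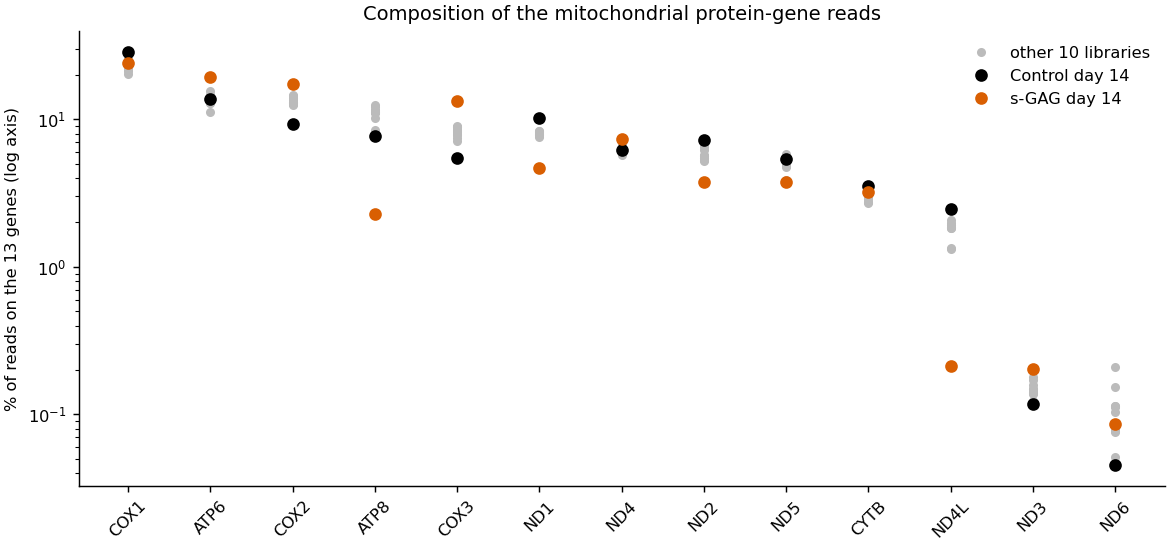
Share of the reads on the 13 mitochondrial protein genes taken by each gene (log axis, %), with 1 point per library. s-GAG day 14 (orange) lies below all other libraries for ATP8, ND1, ND2, ND5 and ND4L and above all others for ATP6, COX2, COX3 and ND3, and Control day 14 (black) lies at the opposite edge for COX2, COX3, ND1, ND2, ND4L and ND3.

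Of the 86 nuclear members, 79 had at least 10 reads in every library. Ndufs6, an accessory subunit of complex I, had 1 read in all 12 libraries together, Ndufa13-ps1 (a pseudogene by its name) also 1, Atp5hl1 18 and Cox7a2l2 43. The rows of a complex differed widely per length, and they include isoforms and an inhibitor beside the subunits. In complex I the highest mean FPKM was 304 (Ndufb9) and the lowest 5.38 (Ndufs8, an iron-sulfur subunit), among members with at least 10 reads in every library, a limit that holds for the levels of the other complexes too. In complex II they were 106 (Sdha, the flavoprotein) and 20.8 (Sdhd, a membrane anchor), and in complex III 522 (Uqcrh, the hinge protein) and 5.71 (Uqcr10). In complex IV they were 908 (Cox4i1) and 8.46 (Cox4i2, the isoform known from lung), and in complex V 1322 (Atp5if1, the inhibitor of the enzyme's reverse reaction) and 10.6 (Atp5mc2, one of 3 genes for the c subunit). Many subunit genes have processed copies in the genome, and how the counting treated reads that match several copies is not given in the sources used here, so that low levels are uncertain.

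Atp5if1 was 1219 FPKM in Control, 644 in d-SMG, 1219 in s-GAG and 1183 in Alg on day 3. On day 7 it was 798 in Control, 1232 in d-SMG, 1346 in s-GAG and 896 in Alg. On day 14 it was 793 in Control, 1451 in d-SMG, 3609 in s-GAG and 1477 in Alg. The d-SMG day 3 library was the lowest of all 12 and s-GAG day 14 the highest. The c subunit genes Atp5mc1, Atp5mc2 and Atp5mc3, whose proteins are identical once mature, had mean FPKM of 12.1, 10.6 and 35.7. Atp5mc3 was 63.3 FPKM in d-SMG day 14 and 89.6 in s-GAG day 14, against 19.4 to 37.5 in the other 10 libraries.

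Over the 3 days, no member of either genome passed the test against control under any treatment. By edgeR's quasi-likelihood test with Benjamini-Hochberg adjustment over 15597 genes, 0 of the 82 nuclear and 0 of the 18 mitochondrial members tested were called at an adjusted p of 0.05 for d-SMG, s-GAG or Alg, and 0 genes of the whole table were called either (background 0%). The low-count filter left out 4 nuclear and 15 mitochondrial members. At an unadjusted p under 0.05 the test held 0 nuclear and 1 mitochondrial member for d-SMG, 1 and 1 for s-GAG, and 0 and 1 for Alg, beside 201, 1419 and 467 of all genes. DESeq2 called 0 members as well, with 9, 277 and 93 genes called over the table. It held 0 nuclear and 2 mitochondrial members at an unadjusted p under 0.05 for d-SMG, 3 and 1 for s-GAG, and 0 and 1 for Alg.

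The fitted changes for d-SMG were small and mostly positive in both genomes, and did not pass the test. The median log2 fold change against control was 0.33 for the nuclear members (79 of 82 positive) and 0.49 for the mitochondrial members (15 of 18 positive), beside 0.00 over all genes. All 13 mitochondrial protein genes had a positive value, from 0.23 for ND4L to 0.83 for ND6, with a median of 0.55 and a median standard error of 0.40. By the day, the median log2 ratio of the 82 nuclear members was 0.36, 0.18 and 0.38 for days 3, 7 and 14 (mean 0.31 ± 0.11 SD, n = 3 days), and that of the 18 mitochondrial members was 0.71, 0.56 and 0.37 (0.55 ± 0.17). Without the Control day 14 library, the nuclear median was 0.0769 and the mitochondrial one 0.74. Members share the 3 control libraries and are not independent of each other.

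For s-GAG, the nuclear median was 0.65 with 80 of 82 members positive, and this rested on 1 library. Without s-GAG day 14 it was -0.05. The single days gave -0.48 (day 3), 0.25 (day 7) and 1.84 (day 14). The mitochondrial median was 0.10, and 0.10 without that library, with 0.02, 0.43 and 0.06 by day. For Alg the medians were 0.09 (63 of 82 positive) and 0.13 (13 of 18 positive), and by day -0.38, 0.52 and 0.08 for the nuclear and 0.03, 0.80 and -0.33 for the mitochondrial members. The values of Alg thus spread around 0 over the days by more than their mean.

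ND6 was the member with the smallest unadjusted p for s-GAG and Alg. Its FPKM was 19.4 in Control, 15.7 in d-SMG, 30.5 in s-GAG and 19.8 in Alg on day 3. On day 7 it was 13.4 in Control, 32.7 in d-SMG, 33.8 in s-GAG and 30.6 in Alg, and on day 14 it was 8.69 in Control, 26.6 in d-SMG, 13.1 in s-GAG and 34.0 in Alg. Control was the lowest of the 4 libraries on days 7 and 14 but not on day 3. The fitted log2 fold changes were 0.83 ± 0.38 (SE) for d-SMG, 0.88 ± 0.38 for s-GAG and 1.02 ± 0.39 for Alg, with adjusted p of 1, 0.546 and 0.9999 by edgeR. Without s-GAG day 14 the s-GAG value was 1.11 ± 0.38 (adjusted p of 0.493 by edgeR). The 3 comparisons share the control libraries.

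Over the 4 treatments, the mitochondrial members had lower fitted values on day 14 than on day 3, and again no member passed the test. For day 14 against day 3 the mitochondrial median was -0.59 with 13 of 13 protein genes negative, from -0.27 for ND6 to -1.13 for ATP8. Within treatments it was -0.54 in Control, -0.84 in d-SMG, -0.28 in s-GAG and -0.78 in Alg, negative in all 4 (mean -0.61 ± 0.26 SD, n = 4 treatments). Without s-GAG day 14 the fitted median was -0.64. The nuclear median was 0.06, with -0.68 in Control, -0.62 in d-SMG, 1.65 in s-GAG and -0.19 in Alg, and -0.38 without s-GAG day 14. The fitted muscle marker median for the same comparison was -1.53, with 0 of 18 positive, and its part in the result was not tested.

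For day 7 against day 3 the nuclear median was -0.41 (78 of 82 negative) and the mitochondrial -0.32 (17 of 18 negative). Within treatments the nuclear values were -0.79 in Control and -0.96 in d-SMG, against 0.03 in s-GAG and 0.20 in Alg. For day 14 against day 7 the nuclear median was 0.45 with 80 of 82 positive, and -0.10 without s-GAG day 14, and the mitochondrial median was -0.30, and -0.37 without it. Within treatments the mitochondrial values were 0.18 in Control, -0.12 in d-SMG, -0.12 in s-GAG and -0.92 in Alg, so that Alg had the lowest and Control the opposite sign. The edgeR test called 0 members and 0 genes of the table in the 3 comparisons of days (background 0%). At an unadjusted p under 0.05 it held 0 nuclear and 0 mitochondrial members for day 7 against day 3, 1 and 2 for day 14 against day 3, and 1 and 1 for day 14 against day 7, beside 270, 759 and 460 of all genes. DESeq2 called 0 members and 18, 46 and 26 genes, and held 1, 1 and 1 nuclear and 0, 4 and 2 mitochondrial members at an unadjusted p under 0.05.

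Ndufa4l2 had the smallest unadjusted p of all members for day 14 against day 3 (0.00877) and against day 7. It is a hypoxia-induced relative of Ndufa4, a protein first assigned to complex I and now counted with complex IV. Its FPKM was 5.33 in Control, 4.03 in d-SMG, 10.3 in s-GAG and 5.80 in Alg on day 3. On day 7 it was 8.80 in Control, 9.07 in d-SMG, 5.64 in s-GAG and 5.63 in Alg. On day 14 it was 14.9 in Control, 11.5 in d-SMG, 15.4 in s-GAG and 9.05 in Alg. The day 14 value was the highest of its treatment in all 4 treatments. The fitted log2 fold change of day 14 against day 3 was 1.003 ± 0.31 (SE), with an adjusted p of 0.888 by edgeR, and 0.87 ± 0.32 without s-GAG day 14 (adjusted p of 0.544). The ratio of Ndufa4l2 to Ndufa4 in FPKM ranged from 0.104 (d-SMG day 3) to 0.645 (Control day 14).

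Against the control library of the same day, values are log2 ratios of 2 libraries with no test, and genes past 2-fold are counted beside the share of all genes past 2-fold. On day 3, d-SMG had 2 of 82 nuclear members higher and 0 lower, where 9.37% of 15846 genes were higher and 13.2% lower. Of the 20 mitochondrial members with enough reads, 7 were higher and 1 lower. The nuclear median was 0.36 and that of the mitochondrial protein genes 0.81, with 13 of 13 positive. Scaled by library totals alone, the nuclear median for d-SMG was -0.09, beside -0.44 over all genes, so its sign depended on the scaling while it lay above the median of all genes under both. The mitochondrial median was 0.26 on that scaling, against 0.71 with TMM. s-GAG had 0 nuclear members higher and 4 lower on day 3, where 13% of genes were higher and 10.7% lower. Alg had 3 higher and 1 lower, where 10.1% were higher and 7.84% lower. Other genes also moved with length on day 3 (length as described below). Set against the mean of the other 3 libraries of the day, those under 1000 bases had medians of 0.37 in Control, -0.35 in s-GAG and -0.07 in Alg. Those over 4000 bases had -0.18, 0.12 and 0.07. The part of gene length in these nuclear ratios was not tested.

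On day 7, d-SMG had 0 nuclear members higher and 2 lower, beside 6.66% of all genes higher and 5.15% lower. s-GAG had 0 in either direction, beside 12.3% and 11.6%, and Alg had 4 higher and 0 lower, beside 11.5% and 11.5%. All 13 mitochondrial protein genes were above the control under each of the 3 treatments on day 7, with medians of 0.56 for d-SMG, 0.44 for s-GAG and 0.83 for Alg, and with ND6 the 1 gene past 2-fold under each. The control library is the same in the 3 comparisons. In Control day 7, other genes under 1000 bases had a median of -0.31 and those over 4000 bases 0.09, against the mean of the other 3 libraries of the day. Scaled by library totals, d-SMG on day 7 had medians of 0.31 over all genes, 0.48 over the nuclear and 0.85 over the mitochondrial members.

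On day 14, d-SMG had 6 of 82 nuclear members higher and 2 lower, beside 11.8% of all genes higher and 15.1% lower. Alg had 1 of 81 higher and 2 lower, beside 8.83% and 10.9%. Of the mitochondrial protein genes, 10 of 13 were above the control for d-SMG and 4 of 13 for Alg, with medians of 0.34 and -0.44. s-GAG had 75 of 83 nuclear members higher and 0 lower, where 25.7% of all genes were higher and 30.4% lower. In the same library, 4 of 18 mitochondrial members were higher and 5 lower. Scaled by library totals the nuclear median was 1.45 instead of 1.84, with the median of all genes at -0.46.

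**Figure D3:**
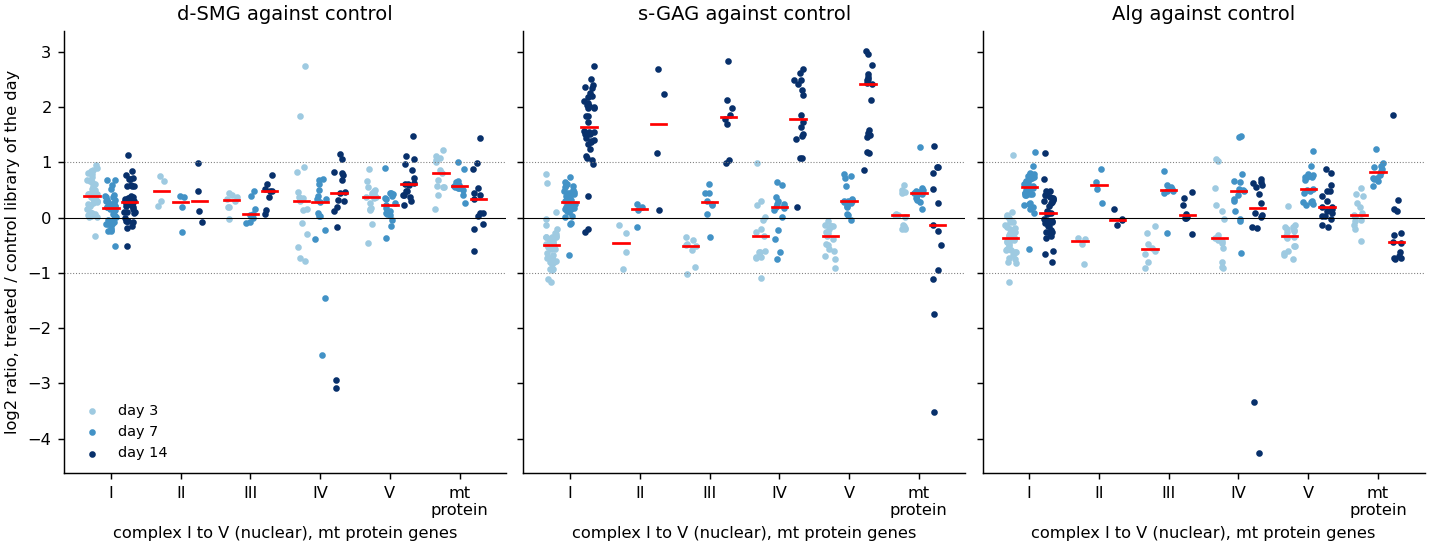
Log2 ratio of each treated library to the control library of its day (TMM-scaled CPM, prior count 2) for single nuclear members by complex I to V and for the 13 mitochondrial protein genes, with 1 point per gene, shades of blue for the days, red bars for medians and dotted lines at 2-fold. In s-GAG day 14, 75 of 83 nuclear points lie above 2-fold, with medians from 1.65 (complex I) to 2.42 (complex V), and the lowest points lie among those of the other libraries.

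By complex, d-SMG gave nuclear medians on day 3 of 0.40 (complex I), 0.48 (II), 0.31 (III), 0.30 (IV) and 0.37 (V), on day 7 of 0.17, 0.29, 0.06, 0.27 and 0.23, and on day 14 of 0.28, 0.29, 0.48, 0.45 and 0.61. Complexes were assigned by the start of the gene name, so Ndufa4 and Ndufa4l2 count with complex I here. Whether the complexes differed was not tested. Of the 17 complex V members, 17 were above the control on day 14 and 3 were past 2-fold, where 8095 of 16395 genes were above it and 11.8% past 2-fold. The nuclear member with the largest ratio was Atp5mc3, with 790 reads in d-SMG and 364 in Control and a log2 ratio of 1.48 (counting interval 1.31 to 1.67).

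The muscle isoforms of complex IV gave the largest single-day ratios outside s-GAG day 14 among members with a mean of at least 50 reads in the 2 libraries. Cox6a2 was 79.5 FPKM in Control, 207 in d-SMG, 41.5 in s-GAG and 45.6 in Alg on day 3. On day 7 it was 33.5 in Control, 6.98 in d-SMG, 40.1 in s-GAG and 89.2 in Alg, and on day 14 it was 55.8 in Control, 7.92 in d-SMG, 92.3 in s-GAG and 5.73 in Alg. It was highest in d-SMG day 3, the library with the highest muscle marker share, and at its 3 lowest values in the 3 libraries with the lowest shares. Cox8b was 33.2 FPKM in d-SMG day 3 and 6.59 in Control day 3, and 1.83 in d-SMG day 14 and 0.590 in Alg day 14 against 16.1 in Control day 14.

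The ratios against control turned with the day. Cox6a2 had a log2 ratio of 1.84 for d-SMG on day 3, -2.49 on day 7 and -2.94 on day 14, and of 1.47 for Alg on day 7 and -3.33 on day 14. Cox8b had 2.74 for d-SMG on day 3 and -3.08 on day 14. For Alg on day 14 it rested on 3 reads against 114, a log2 ratio of -4.27 with a counting interval of -7.17 to -3.29. The median log2 ratio of the 18 muscle markers was 1.55 for d-SMG on day 3, -3.12 on day 7 and -2.57 on day 14, and 1.30 for Alg on day 7 and -2.41 on day 14, with the same signs as Cox6a2. Under s-GAG on day 7 Cox6a2 had the opposite sign to the markers (0.22 against -0.23). On day 3 Cox8b had the opposite sign to the markers under s-GAG (0.99 against -0.71) and Alg (1.03 against -0.94). The part of muscle in the isoform ratios was not tested.

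The other isoforms were lowest where Cox6a2 was highest. Cox6a1 was lowest in d-SMG day 3, at 50.5 FPKM, and was 77.8 FPKM in Alg day 7. In the other 10 libraries it lay between 84.97 and 208 FPKM. Cox8a was likewise lowest in d-SMG day 3, at 9.95 FPKM against 14.8 to 45.3 elsewhere. In s-GAG day 14 all 4 isoforms were above the control, with log2 ratios of 1.07 (Cox6a2), 1.07 (Cox8b), 1.51 (Cox6a1) and 1.73 (Cox8a), and in Alg day 7 Cox8a had 0.67 beside 1.46 for Cox8b. The FPKM ratio of Cox6a2 to Cox6a1 was 4.10 in d-SMG day 3, 1.15 in Alg day 7 and at most 0.663 in the other 10 libraries, down to 0.0431 in Alg day 14. That of Cox8b to Cox8a was 3.33 in d-SMG day 3, 1.08 in Alg day 7 and 0.0303 in Alg day 14.

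**Figure D4:**
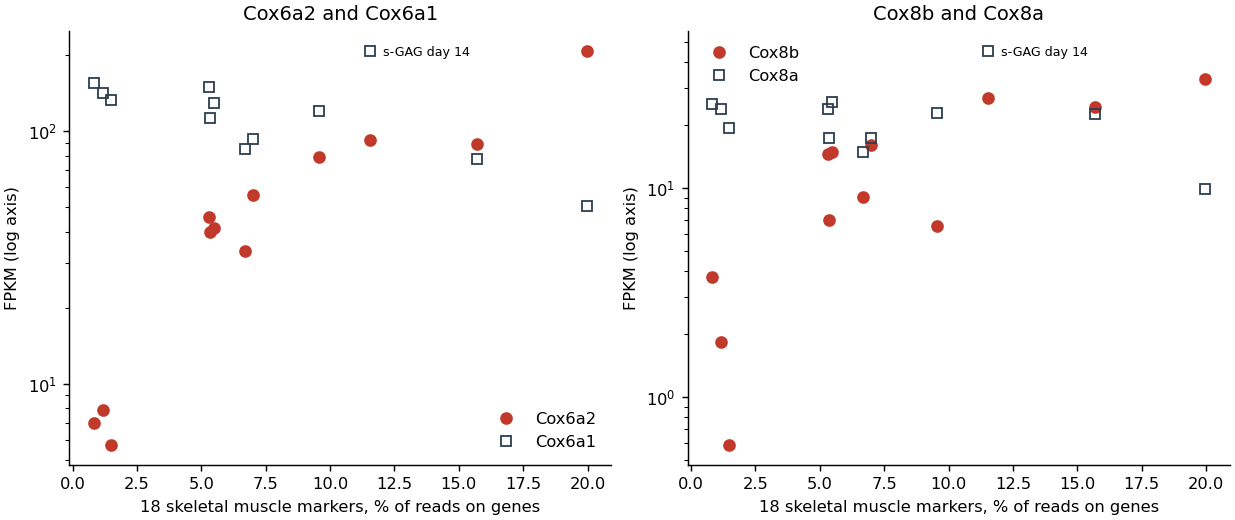
FPKM (log axis) of the muscle isoforms Cox6a2 and Cox8b (red circles) and of Cox6a1 and Cox8a (open squares) in the 12 libraries, against the share of reads on 18 skeletal muscle markers (%). Cox6a2 lies at 5.73 to 7.92 FPKM in the 3 libraries of the lowest shares and at 207 FPKM at the highest share (19.96%), where Cox6a1 is lowest (50.5).

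Of the remaining isoforms, Cox4i2 stayed at 0.00408 (d-SMG day 3) to 0.0217 (d-SMG day 7) of the FPKM of Cox4i1. Cox6b2 (the testis isoform) had a mean of 0.813 FPKM beside 114 for Cox6b1. Cox7a2 had 19.5 and Cox7a2l, a factor of supercomplex assembly, 31.6. The lowest ratios of s-GAG on day 3 were those of the mitochondrial rRNAs, with 1595 reads on mt-Rnr2 against 6071 in Control (log2 ratio -1.51) and 1522 on mt-Rnr1 against 5420 (-1.42). Control day 3 held the highest rRNA share of all 12 libraries, 0.0480%, and s-GAG day 3 held 0.0196%, close to the 0.0187% of d-SMG day 3. The libraries were depleted of rRNA, and the part of depletion in the rRNA ratios was not tested. The 13 mitochondrial protein genes had a median log2 ratio of 0.04 for s-GAG on day 3. In Alg on day 3, Ndufa5 had 1144 reads against 2990, a log2 ratio of -1.17.

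The s-GAG day 14 values moved with gene length. Length was taken from the 2 tables as the value that turns the counts into the FPKM. The nuclear members are short, with a median of 797 bases against 3787 for the 12098 other protein-coding genes with a mean of at least 50 reads. Against the mean of the other 3 libraries of day 14, the other genes under 1000 bases had a median log2 difference of 1.54 in s-GAG day 14, those of 1000 to 2000 bases 0.93, those of 2000 to 4000 bases 0.13 and those over 4000 bases -0.77. The 49 nuclear members under 1000 bases had a median of 1.94 and all 49 were above 0, the 25 of 1000 to 2000 bases had 1.43, and the 5 of 2000 to 4000 bases had 0.76. Ndufa10 was the 1 member over 4000 bases and had 1.15. In each class the members' median lay above that of the other genes.

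Single genes are given on the FPKM scale. Sdha, the flavoprotein of complex II with a length of 2487 bases, was 103 FPKM in Control, 109 in d-SMG, 89.2 in s-GAG and 107 in Alg on day 14. Sdhc, a membrane anchor of the same complex with 1329 bases, was 55.6 in Control, 86.1 in d-SMG, 282 in s-GAG and 66.4 in Alg. Atp5f1e, the epsilon subunit of ATP synthase with 406 bases, was 103 in Control, 179 in d-SMG, 636 in s-GAG and 120 in Alg. Atp5pd, with 821 bases, had the largest ratio to Control, with 15832 reads against 2636 (log2 ratio 3.01). In all, 69 of the 86 nuclear members had their highest FPKM of the 12 libraries in s-GAG day 14, whereas Sdha, Sdhb and Atp5f1b, among others, were highest in d-SMG day 3.

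The 13 mitochondrial protein genes had a median difference of -0.10 in s-GAG day 14, with 6 of 13 above 0. The lowest ratios to Control were in short genes, with ND4L at 355 reads against 5451 in Control (log2 ratio -3.51), ATP8 at 3773 against 16968 (-1.75) and Trnm at 19 against 446 (-4.02). Short mitochondrial genes went both ways, since ND3 (380 bases) had 0.81 and ND6 (567 bases) 0.92. So did longer ones, with -1.12 for ND1 (1043 bases) and 0.25 for ND4 (1505 bases). The differences of the other day 14 libraries contain s-GAG day 14 in the mean they are set against, so they were also taken without it. In Control day 14 the other genes under 1000 bases then had a median of -0.37 and those over 4000 bases 0.14, with -0.23 for the nuclear members. In d-SMG day 14 these were 0.38 and -0.21, with 0.36 for the nuclear members, and in Alg day 14 -0.04 and 0.07, with -0.08. By class, the nuclear members under 1000 bases had 0.38 in d-SMG day 14 and -0.22 in Control day 14. Those of 1000 to 2000 bases had 0.39 and -0.27, and the 5 of 2000 to 4000 bases 0.06 and -0.03. The part of gene length in the nuclear ratio of d-SMG to Control on day 14 was not tested. Gene length, tissue make-up and treatment cannot be told apart in s-GAG day 14, the only library of that treatment and day.

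**Figure D5:**
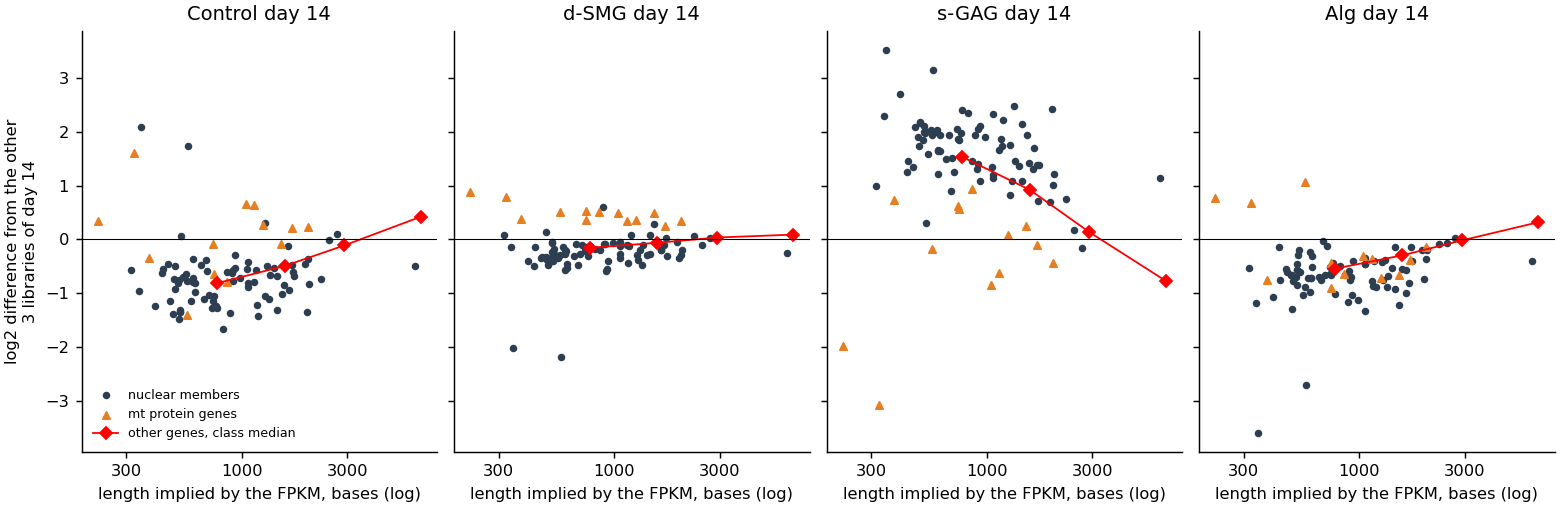
Log2 difference of each day 14 library from the mean of the other 3 libraries of that day, against the length implied by the FPKM (log axis, bases), for nuclear members (dark points), mitochondrial protein genes (orange triangles) and the class medians of 12098 other protein-coding genes (red diamonds). In s-GAG day 14 the red line goes from 1.54 to -0.77 with length, and the nuclear members under 1000 bases have a median of 1.94.

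In d-SMG day 3, the length class medians of the other genes lay between 0.01 and 0.06, while the nuclear members had a median of 0.71 above the other 3 libraries of day 3, with 73 of 80 above 0, and the mitochondrial protein genes 0.79, with 13 of 13. The muscle marker share was 19.96% there, against 5.30% to 9.57% in the other 3. In Alg day 7 (15.7% muscle markers), the nuclear members had a median of 0.40 and the mitochondrial protein genes 0.45, with 13 of 13 above 0 and class medians of -0.16 to 0.09. In d-SMG day 7 (0.826%), the medians were -0.12 and 0.14. The order of the medians was not that of the muscle share in all libraries, since the mitochondrial median was 0.50 with 13 of 13 above 0 in d-SMG day 14 (1.16% muscle markers) and -0.10 in s-GAG day 14 (11.5%). These differences are TMM-scaled, with factors of 0.715 in d-SMG day 3, 0.963 in Alg day 7 and 1.21 in d-SMG day 7. By library totals, the nuclear medians against Control on day 3 were -0.09 for d-SMG, -0.30 for s-GAG and -0.23 for Alg. Over all genes they were -0.44, 0.13 and 0.13. On day 7 the nuclear medians were 0.48, 0.31 and 0.48, beside 0.31, 0.10 and -0.05 over all genes. The sizes thus depended on the scaling, and the part of muscle in these values was not tested.

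The genes around the chain were read from fixed lists. In the edgeR fits over days and treatments, 0 members of any list were called. For d-SMG, the median log2 fold change was 0.25 for 8 genes of cytochrome c and other chain genes, 0.15 for 44 assembly factors, 0.15 for 19 genes of mtDNA transcription and maintenance, 0.23 for 8 regulators and 0.33 for 5 uncouplers and carriers tested. For Alg the values were 0.12, -0.03, 0.01, 0.02 and 0.03. On day 14, s-GAG had 23 of 44 assembly factors past 2-fold higher and 4 lower, and 1 of 7 regulators higher and 4 lower, where 25.7% of all genes were higher and 30.4% lower. That library moved with gene length, with medians of 1.54 for other genes under 1000 bases and -0.77 for those over 4000 bases. The part of gene length in these list counts was not tested. Ppargc1a, Esrrg and Perm1, regulators known to be high in muscle, are among the 8 regulators. For s-GAG over the days the medians of the 5 lists were 0.53, 0.30, 0.18, -0.10 and 0.74, and without s-GAG day 14 they were 0.0010, -0.19, 0.07, 0.20 and -0.11.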

How the data were processed

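Total RNA of 12 wound samples was depleted of rRNA and sequenced as stranded paired-end libraries. The authors deposited 1 table of read counts per gene, not normalized, and 1 table of FPKM, in which the counts are divided by gene length and library total. The submitters' processing notes name bcl2fastq, FastQC, TopHat2 and edgeR, without versions or roles. The genome build, the counting tool and whether counting used strand are not given in the sources used here. Each of the tables holds 1 further column that matched no described sample and was not used.

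Samples were grouped by the treatment and day in their labels. Counts were fitted with edgeR 4.0.16 in R 4.3.3 (quasi-likelihood test, TMM scaling, filterByExpr on treatment, terms for day and treatment), with Benjamini-Hochberg adjustment over 15597 genes at 0.05. The days served as replicates of a treatment and the treatments as replicates of a day, so the error includes how treatments differ between days. A treated library was set against the control of its day as a log2 ratio of TMM-scaled CPM (prior count 2, at least 10 reads in the 2 libraries), with genes past 2-fold counted and no test. Counting intervals and shares used exact 95% binomial intervals (scipy 1.17.1), and tables used pandas 2.3.3 and Python 3.11.15. On simulated counts for the d-SMG comparison, with 200 of 15419 genes changed 4-fold, the fit recovered 88.5% and called 14 others. A 4-fold change is far larger than the fitted medians of the members, and the recovery of changes of their size was not measured. In the data, 0 genes were called for d-SMG, though fitted log2 fold changes ran from -7.30 to 6.67. The recovery therefore holds for the simulated spread only. Whether a 4-fold change would pass in these libraries was not measured.

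Named were the mitochondrial protein genes, the highest and lowest nuclear member per complex by mean FPKM among those with at least 10 reads in every library, the isoform pairs and Atp5if1, and for each single-day comparison up to 2 members in each direction past 2-fold with a mean of at least 50 reads. Other genes were named after their values were seen. The members and gene lists were chosen with earlier results of these data known. Alternatives were other scalings (RLE, library totals, TMM without mitochondrial rows), filters, prior counts and units, DESeq2 1.42.0, other model terms, members without muscle isoforms, and libraries, days or treatments left out. Leaving out s-GAG day 14 or Control day 14 was chosen after seeing the data.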

Additional observations from a re-analysis of the deposited data

Results flagged for a closer look

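Among 120 groups of the 4 libraries of a day, 7 held a library that stood far from the other 3 by Dixon's criterion at 95%, where chance gives about 6. On day 3, the ratio of mitochondrial to nuclear reads was 1.48 in Control against 1.84 to 1.87 in the others. ATP8 was 5014 FPKM in Control on day 3 against 7607 to 7870. Atp5if1 was 644 FPKM in d-SMG on day 3 against 1183 to 1219, and COX2 was 3116 FPKM there against 2588 to 2676. On day 7, Ndufa4 was 19.5 FPKM in Control against 26.8 to 28.2, and ND6 was 13.4 FPKM there against 30.6 to 33.8. ATP8 took 12.5% of the mitochondrial protein-gene reads in d-SMG on day 7 against 11.1% to 11.4%.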

How the results depend on the processing

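Under every alternative run, 0 members were called in the 6 comparisons over days or treatments. Of the alternative values, 390 stayed within 1 SD over days or treatments, 162 of them counts that stayed at 0, and 3 moved by more. The SD was wide where it held s-GAG day 14, at 1.18 for the s-GAG nuclear median. The changes of sign without that library, given below, therefore count among the 390, and this tally says little about stability. The d-SMG nuclear median (0.33) was 0.0769 without Control day 14, and the mitochondrial one (0.49) was 0.741. Leaving out 1 day at a time gave 0.448 to 0.706 for the mitochondrial and 0.281 to 0.335 for the nuclear median. The cause was not tested. Without s-GAG day 14, the nuclear medians turned from 0.65 to -0.05 for s-GAG, from 0.06 to -0.38 for day 14 against day 3, and from 0.45 to -0.10 for day 14 against day 7. Small medians changed sign between alternatives, over -0.19 to 0.37 (nuclear) and -0.27 to 0.44 (mitochondrial) for Alg, and -0.11 to 1.14 and -0.07 to 0.24 for s-GAG. The median ratio of mitochondrial to nuclear reads (1.63) ranged from 1.59 to 1.92. The day stood in the fits of treatments as a block, and without it the d-SMG medians were 0.34 and 0.57. No paired analysis by replicate number was possible because each treatment and day has 1 library. With 1 library per treatment and day, a difference on a single day cannot be told from the difference between any 2 wounds.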
